A study of Arabidopsis thaliana with 4 samples.

Results

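The type 1 lipid transfer proteins of Arabidopsis thaliana, the thale cress, were followed through 4 organs of the accession Col-0. The genes were chosen by locus code as LTP1 to LTP8, LTP11 and LTP12, and all 10 were found among the 34288 loci of the authors' gene table. Roots and leaves came from 2-week-old plants on MS plates, and the growth protocol calls the leaf material the aerial part. Flowers and siliques, the pods that carry the developing seeds, came from 5-week-old plants in soil, and all plants were kept in long days at 22 °C. Each organ is 1 library of wild-type plants with no treatment named, so the values carry no error between replicates, and nothing was tested. Roots and leaves share age and medium, as do flowers and siliques. In the other 4 pairs the organ cannot be told apart from age and medium.

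Lipid transfer proteins are small, secreted, basic proteins in which disulfide bridges between cysteines hold a set of helices around a cavity that binds fatty acids and other lipids. They lie mostly outside the cell, in the wall and cuticle of the epidermis, and bind lipids in vitro. The type 1 proteins are also counted as the PR-14 class of pathogenesis-related proteins. The reference annotation lists 15 genes in that class in Arabidopsis, of which 10 are described here and 5 are given as a comparison.

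The authors' values are FPKM (fragments per kilobase, scaled for library depth), each with an interval whose confidence level is not given in the sources used here. FPKM is per length, so levels of different genes are set side by side on that scale. Differences between organs are log2 ratios of FPKM + 1, a scale that shrinks the differences of weakly expressed genes. A ratio of 4-fold or more, 2 on the log2 scale, was called, and the same rule was run over the 23477 loci with a usable status in every library and an FPKM of at least 1 in some organ. All 10 genes passed that filter. Ranks and shares of the FPKM sum are among the 34071 loci with a usable status in every library, and loci without it are not ranked. The usable loci held 683958 FPKM in siliques, against 714182 over all loci, and 665240 in flowers, against 689070. The 4 root markers summed to 605 FPKM in roots and at most 18.7 elsewhere, and the 4 seed coat markers to 731 in siliques and at most 14.8 elsewhere. The 4 flower markers summed to 1249 FPKM in flowers, 82.0 in siliques (79.0 of it from AP3, a petal and stamen regulator) and at most 1.15 in the others, and the 4 photosynthesis markers to 40.4 in roots, 12367 in leaves, 8999 in siliques and 4198 in flowers, so these mark green tissue and not leaves alone. In these bulk samples, fewer cells of a type and less RNA per cell cannot be told apart.

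The genes lie on 4 chromosomes, and 6 of them form 3 neighbouring pairs with no other locus of the table in between. LTP2 (AT2G38530, chromosome 2, 16128378 to 16129158 in TAIR10) is followed after 1191 bases by LTP1 (AT2G38540, 16130350 to 16131174) on the same strand. LTP4 (AT5G59310, chromosome 5, 23925085 to 23925852) and LTP3 (AT5G59320, 23928971 to 23929745) point away from each other with 3118 bases between their starts. LTP12 (AT3G51590, chromosome 3, 19135665 to 19136683) lies 1710 bases from LTP5 (AT3G51600, 19138394 to 19139252) on the same strand. The others stand alone among the 10: LTP6 (AT3G08770) on chromosome 3 at 2664139 to 2664828, LTP7 (AT2G15050) and LTP8 (AT2G18370) on chromosome 2 at 6518840 to 6520160 and 7980625 to 7981758, and LTP11 (AT4G33355) on chromosome 4 from 16067002. The coding sequence of LTP7 lies in 1 exon in the reference transcript used and those of the other 9 in 2. The predicted proteins have 112 to 123 residues, of which 8 to 10 are cysteines.

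The bases upstream of the start are shown for LTP1, LTP3 and LTP12, which are among the genes with the highest levels or the largest ratios between organs described below. They were read from the RefSeq TAIR10.1 assembly, 5′ to 3′ on the strand of the gene, and run from 250 bases before the start in the table to the start in the table or in RefSeq, whichever is farther upstream. Capitals mark matches on either strand to TATAAA (the core promoter box found near many starts), to CATGCA (core of the RY element, bound by seed regulators) and CCAACTA, a string noticed in these windows. Adjacent or overlapping matches join into 1 run of capitals. Cut in the same way, the windows of LTP6 and LTP4, which reached higher levels than these genes, hold no such match. Those of LTP2, LTP5, LTP8 and LTP11 hold none either.
LTP1 (chr2:16130100-16130289, plus strand): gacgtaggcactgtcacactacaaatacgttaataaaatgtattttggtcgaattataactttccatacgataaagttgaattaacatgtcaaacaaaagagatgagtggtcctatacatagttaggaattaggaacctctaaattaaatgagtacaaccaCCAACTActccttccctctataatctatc
LTP3 (chr5:23928721-23928953, plus strand): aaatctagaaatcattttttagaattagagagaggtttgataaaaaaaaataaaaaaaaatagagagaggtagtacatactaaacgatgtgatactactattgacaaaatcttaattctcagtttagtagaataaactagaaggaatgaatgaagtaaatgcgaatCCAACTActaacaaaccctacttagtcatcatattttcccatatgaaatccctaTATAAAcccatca
LTP12 (chr3:19136684-19136933, minus strand): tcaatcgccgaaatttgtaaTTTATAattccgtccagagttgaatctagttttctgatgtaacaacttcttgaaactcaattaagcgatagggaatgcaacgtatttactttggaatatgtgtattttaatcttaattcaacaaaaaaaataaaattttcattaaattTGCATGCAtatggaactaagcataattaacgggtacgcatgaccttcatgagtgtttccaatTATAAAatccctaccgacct

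Over the full 250 bases before the start in the table, that core promoter box began 30 bases before the deposited start of LTP3 and LTP4, 29 before that of LTP6 and LTP7, and 27 before that of LTP8. Its letters were found on either strand in 7 of the 10 windows, against 50.3% of the windows of 20646 protein-coding loci with an interval of their own. The letters TAAATGNA (L1 box, bound by homeodomain proteins of the epidermis) were found in 2 windows (LTP4 and LTP5), against 9.44% of all windows, and the RY core in 2 (LTP4 and LTP12), against 8.27%. ACGTG, the core of abscisic acid response elements, was found in 0 of the 10 windows and in 25.2% of all. The string CCAACTA was found in 6 windows (LTP1, LTP2, LTP3, LTP4, LTP5 and LTP7), against 3.29% of all. It was picked after the windows had been read, so this share is a description. Some of these windows also resemble each other as a whole. The last 100 bases of LTP3 and LTP4 were 92.1% identical and those of LTP1 and LTP7 70.1%, with a median of 46.3% over the 45 pairs. RefSeq places the start of 7 of the 10 genes 60 to 202 bases farther upstream than the table does, and that of LTP2 farthest. In that annotation 12 of the 21 motif matches lie after the start, in the transcribed part, among them every match in LTP2, LTP4, LTP5, LTP6 and LTP8. Its start lies 105 bases farther upstream for LTP4, 91 for LTP7 and 60 for LTP1. The last 100 bases compared above are then wholly transcribed in LTP4 and mostly so in LTP7 and LTP1. The distances to the start, the shares of windows with a match and these identities therefore hold for the starts in the table.

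As a family, the 10 genes held 2.93% of the FPKM sum of the usable loci in siliques, 1.12% in flowers, 0.190% in leaves and 0.0382% in roots. The share in siliques was 76.8 times that in roots, and the share in flowers 29.2 times. The leading gene was LTP8 in roots, LTP1 in leaves and flowers and LTP6 in siliques. LTP8 made up 42.1% of the family sum in roots, LTP1 55.6% in leaves and 46.7% in flowers, and LTP6 50.1% in siliques. In each organ the 3 highest genes together held between 83.8% and 91.2% of the sum.

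**Figure D1:**
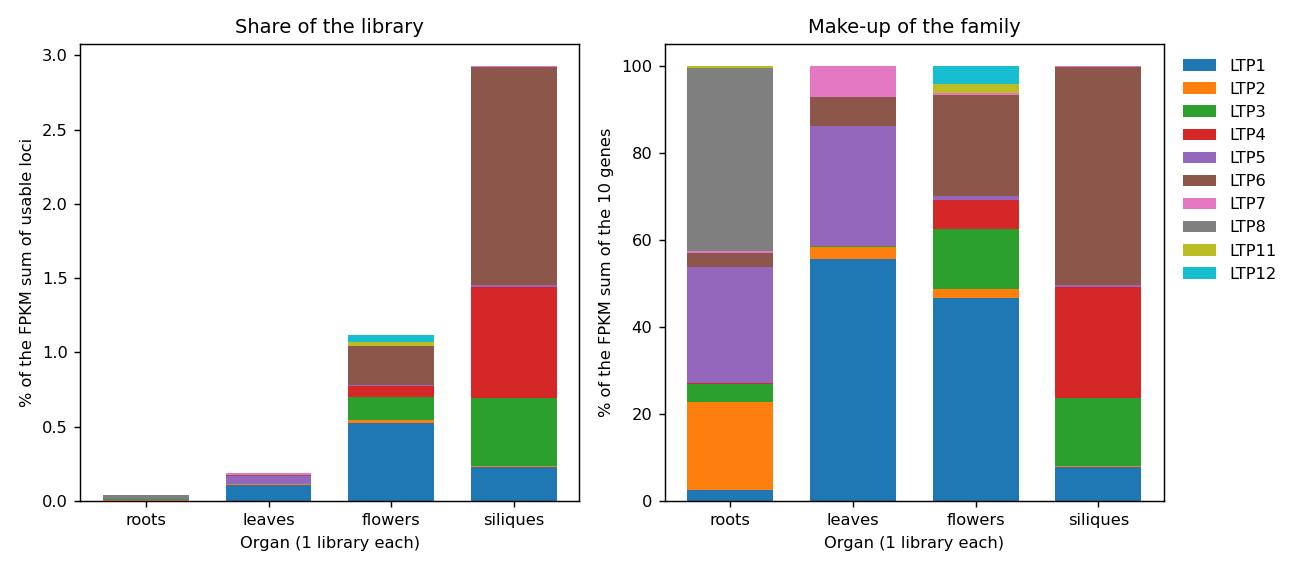
The left panel stacks the 10 genes as a percentage of the FPKM sum of all usable loci in each organ, and the right panel shows each gene as a percentage of the family sum, from 1 library per organ. The family share goes from 0.0382% in roots to 2.93% in siliques, and LTP6 alone makes up 50.1% of the family sum in siliques.

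The highest organ was siliques for 3 genes, flowers for 4, leaves for 2 and roots for 1. Among all compared loci, roots were the highest organ for 39.3%, flowers for 31.6%, siliques for 15.4% and leaves for 13.7%. The organ specificity index tau, which is 0 for a gene at the same level in every organ and 1 for a gene present in a single organ, had a median of 0.53 over the 10 genes and 0.24 over all compared loci. It reached 0.993 for LTP12, 0.918 for LTP11 and 0.877 for LTP8, and was lowest for LTP2 at 0.236 and LTP5 at 0.256.

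**Figure D2:**
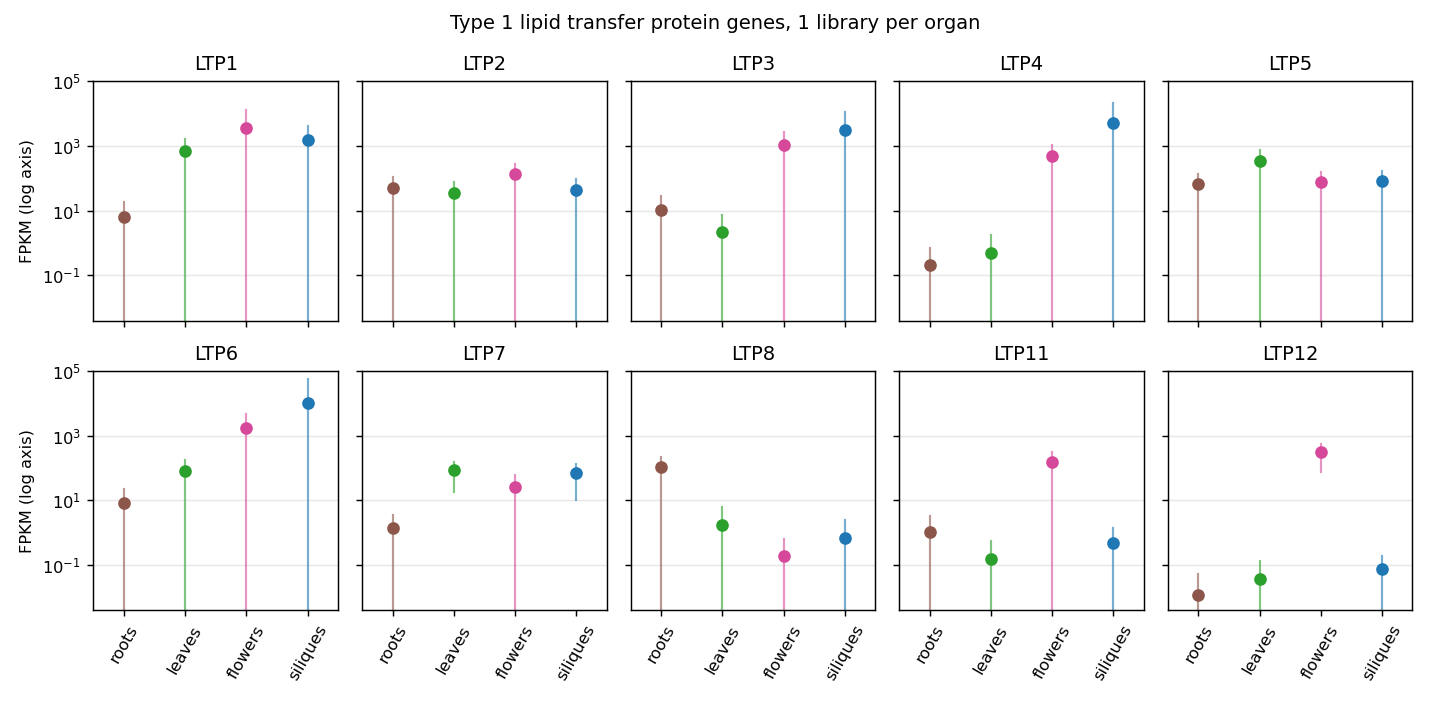
Each panel shows 1 gene, with the FPKM in each organ on a log axis as a point and the authors' interval as a line, which runs to the bottom of the axis where its lower end is 0. LTP3, LTP4 and LTP6 stand highest in siliques, LTP6 at 10042 FPKM, LTP8 is high in roots, and LTP11 and LTP12 are high in flowers.

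LTP6, LTP4 and LTP3 were the genes with siliques as the highest organ. LTP6 stood at 82.8 FPKM in leaves, 8.05 in roots, 1725 in flowers and 10042 in siliques, where it had the highest value of all usable loci. Its silique value was 5.82 times the flower value and 1247 times the root value. The authors' interval in siliques, from 0 to 56238 FPKM, covers the values of the other organs. Neither the lead nor its size is therefore fixed by the deposited precision.

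LTP4, a gene known to respond to abscisic acid and drought, had 0.207 FPKM in roots, 0.493 in leaves, 5104 in siliques and 491 in flowers. It ranked 2nd of all usable loci in siliques and 21482nd in roots. Its intervals start at 0 in every organ, with 0 to 20627 FPKM in siliques. The log2 ratio was 3.38 for siliques over flowers and 12.0 for siliques over roots. LTP3, its divergent neighbour with the same known responses, had 2.23 FPKM in leaves, 10.6 in roots, 1026 in flowers and 3139 in siliques. It thus kept some level in the young organs where LTP4 was nearly absent. LTP3 was 51.4 times LTP4 in roots, 4.53 times in leaves and 2.09 times in flowers, but 0.615 times in siliques, where LTP4 stood above it.

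The coding sequences of LTP3 and LTP4 were 84.5% identical, the highest of the 45 pairs, and their longest exact shared run had 44 bases. That run, shown because a fragment lying wholly inside it cannot be assigned to either gene, was:
LTP3 and LTP4 shared run: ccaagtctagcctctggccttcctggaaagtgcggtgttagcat
How the authors divided such fragments is not given in the sources used here, so the split between these neighbours is less certain than their sum. Seed coat markers moved with these 3 genes between flowers and siliques. All 4 of them (BAN, MYB5, TT10 and TT12) were at least 4-fold higher in siliques, their summed level going from 14.8 to 731 FPKM. Their part in the silique values of LTP3, LTP4 and LTP6 was not tested.

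LTP1 and LTP2 are neighbours on the same strand with different profiles. LTP1, an abundant protein of the epidermal wall, stood at 6.54 FPKM in roots, 684 in leaves, 1560 in siliques and 3468 in flowers. Roots were far below the aerial organs, with log2 ratios of -6.51 against leaves, -8.85 against flowers and -7.69 against siliques. The authors' intervals for LTP1 start at 0 in every organ and overlap (0 to 18.5 FPKM in roots, 0 to 1574 in leaves). In flowers it ranked 1st of all usable loci. LTP2, which has been tied to cuticle integrity in etiolated seedlings, varied little by comparison. It had 34.1 FPKM in leaves, 50.7 in roots, 139 in flowers and 44.4 in siliques. Its highest and lowest organs differed by 4.07 times in FPKM, which on the log2(FPKM + 1) scale fell just short of the threshold. The reference annotation describes LTP2 as absent from roots, an organ that ranked second of the 4 for it here. In roots LTP2 was 7.76 times LTP1, whereas LTP1 was 20.1 times LTP2 in leaves, 24.9 times in flowers and 35.2 times in siliques.

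Most markers of the aerial epidermis were also lower in roots. All 5 (ATML1, PDF2, PDF1, FDH and CER6) were at least 4-fold lower in roots than in leaves and than in flowers, and 4 of 5 than in siliques, where PDF1 had 55.9 FPKM against 73.3 in roots. Their sum was 107 FPKM in roots, 793 in leaves, 833 in siliques and 1101 in flowers. The LTP1 ratio of leaves over roots, 105 times in FPKM, is larger than that of the marker sum. The part of the epidermis in the LTP1 values was not tested.

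LTP5 and LTP7 had leaves as their highest organ. LTP5, which is known from pollen tube growth and fertility, had 339 FPKM in leaves, 67.2 in roots, 77.3 in flowers and 82.2 in siliques. Leaves were higher than the other organs, which were close to each other. The interval in leaves, 0 to 717 FPKM, overlaps those of the other organs. The log2 ratios of leaves over siliques, flowers and roots were 2.03, 2.12 and 2.32, the first of them just past the threshold and under it (1.98) with a pseudocount of 5 FPKM. LTP7 had 1.40 FPKM in roots, 86.5 in leaves, 69.2 in siliques and 25.1 in flowers. Leaves and siliques were close, at a log2 ratio of 0.32. The authors' interval in roots, 0 to 3.61 FPKM, lay below those in leaves (18.5 to 155) and siliques (10.2 to 128).

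LTP8 was the gene with roots as its highest organ. It stood at 1.79 FPKM in leaves, 106 in roots, 0.190 in flowers and 0.687 in siliques. Its log2 ratio of roots was 5.26 over leaves, 6.49 over flowers and 5.99 over siliques, and 97.6% of its summed FPKM lay in the root library. The interval in roots, 0 to 215 FPKM, overlaps those of the other organs. LTP8 was the single gene of the 10 called higher in roots in any pair at the pseudocount of 1 FPKM. At 0.1 FPKM, LTP3 and LTP11 were also called higher in roots than in leaves. LTP1 was its opposite, with the largest profile distance to LTP8 (17.5 log2 units over the 4 organs) among the 45 pairs.

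LTP11 and LTP12 were flower genes. LTP12, known from the tapetum, the anther layer that feeds the pollen, had 0.0115 FPKM in roots, 0.0362 in leaves, 0.0763 in siliques and 315 in flowers. Flowers held 99.96% of its summed FPKM, and the authors' interval there (75.6 to 554) lay wholly above those of the other organs, whose upper ends were at most 0.196. The estimated step was 128 to 132 fragments per kilobase for an FPKM of 1. By that step its values correspond to roughly 0.87 fragments in roots, 2.76 in leaves and 5.74 in siliques. The step rests on an unchecked assumption, so these counts are a rough guide. Such low values of LTP12 are read as near the limit of detection. Its neighbour LTP5 was 5841 times higher than LTP12 in roots and 0.245 times its level in flowers, so the order of these adjacent genes turned round.

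LTP11 had 0.156 FPKM in leaves, 1.06 in roots, 157 in flowers and 0.464 in siliques. The log2 ratio of flowers was 6.25 over roots, 7.09 over leaves and 6.75 over siliques. The interval in flowers, 0 to 317 FPKM, overlaps those of the other organs. In the table LTP11 shares its interval, 16067002 to 16069379, with AT4G33360 (FLDH) on the opposite strand, whose gene model overlaps it by 149 bases in the reference. FLDH had another order of organs, with 79.7 FPKM in roots, 15.8 in leaves, 30.2 in siliques and 26.9 in flowers. The library kit does not mark strand, so reads from the overlap cannot be told apart. Pollen markers and 3 of 4 floral markers moved with these genes between flowers and siliques. The exception was AP3, with 120 FPKM in flowers and 79.0 in siliques. All 3 pollen markers (PPME1, AHA6 and VGD1) were at least 4-fold higher in flowers than in siliques, at a sum of 666 against 28.0 FPKM and at most 0.0203 in the young organs. The tapetal gene A9 had 73.6 FPKM in flowers against 0.0129 in siliques. Their part in the values of LTP11 and LTP12 was not tested.

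Each count of genes called in a pair of organs is set beside the share of all compared loci called in the same direction. Between roots and leaves, LTP8 was higher in roots, 1 of 10 against a background of 9.09%. LTP1, LTP5, LTP6 and LTP7 were higher in leaves, 4 of 10 against 7.42%. With a pseudocount of 0.1 FPKM the count higher in roots went from 1 to 3 (LTP3, LTP8 and LTP11), against 13.8%. The 1 of 10 higher in roots is near the background. The median log2 ratio of roots over leaves was -0.17 for the 10 genes and 0.34 for all compared loci. Between flowers and siliques, LTP11 and LTP12 were higher in flowers, 2 of 10 against 4.94%. LTP4 and LTP6 were higher in siliques, 2 of 10 against 3.63%, and LTP3 missed the threshold at a log2 ratio of 1.61 for siliques over flowers. The median was -0.30 for the 10 genes and 0.19 for all loci.

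The other 4 pairs cross age and medium. LTP8 was higher in roots than in flowers, 1 of 10 against 8.31%, while 7 of 10 (LTP1, LTP3, LTP4, LTP6, LTP7, LTP11 and LTP12) were higher in flowers, against 12.1%. The median log2 ratio of roots over flowers was -6.36 for the 10 genes and -0.05 for all loci. Against siliques, LTP8 was again higher in roots, 1 of 10 against 9.11%, and 5 of 10 (LTP1, LTP3, LTP4, LTP6 and LTP7) were higher in siliques, against 10.6%, with medians of -2.58 and 0.14. Between leaves and flowers, LTP5 was higher in leaves, 1 of 10 against 2.42%, and LTP1, LTP3, LTP4, LTP6, LTP11 and LTP12 were higher in flowers, 6 of 10 against 8.09%, with medians of -3.35 and -0.38. LTP1 fell under the threshold in this pair after median-of-ratios scaling and LTP7 passed it as higher in leaves. Between leaves and siliques, LTP5 was higher in leaves, 1 of 10 against 2.77%, and LTP3, LTP4 and LTP6 were higher in siliques, 3 of 10 against 7.07%, with medians of -0.36 and -0.12. These pairs share libraries and are not independent of each other.

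**Figure D3:**
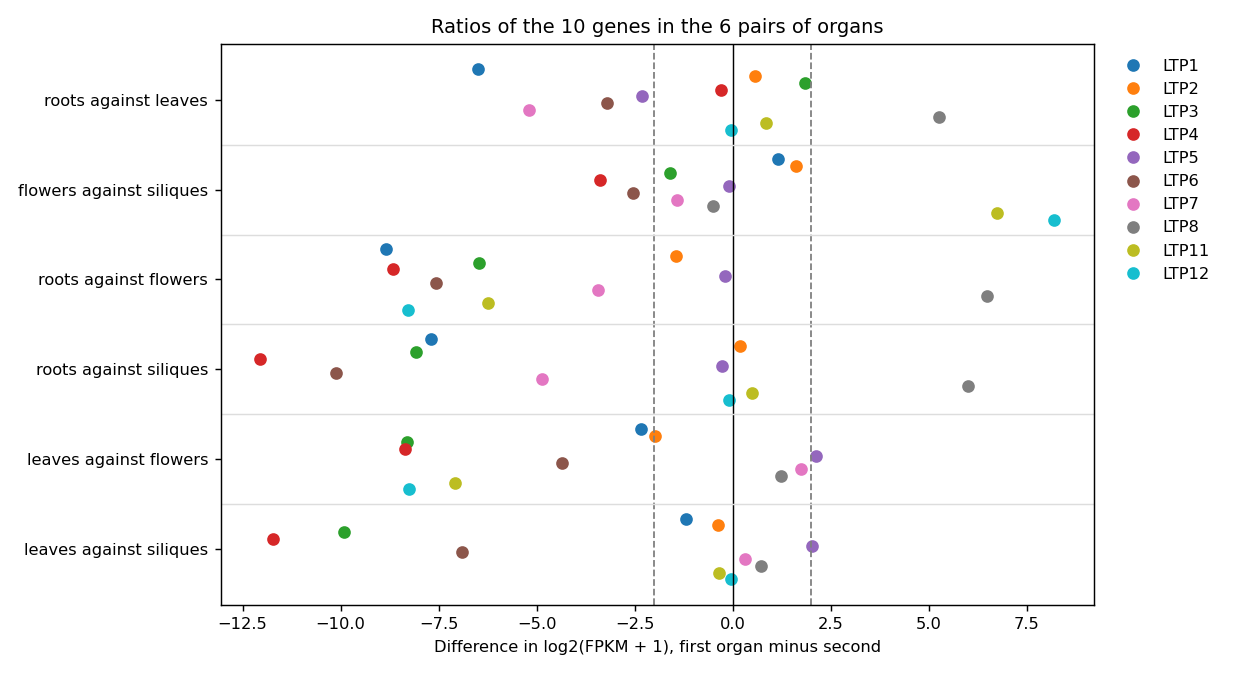
For each of the 6 pairs of organs, points give the difference in log2(FPKM + 1) between the first and the second organ for each of the 10 genes, with dashed lines at a log2 ratio of 2 in either direction. LTP4 reaches -12.0 in roots against siliques, LTP12 reaches 8.20 in flowers against siliques, and LTP8 lies to the right in each pair with roots.

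Few of these differences separate the authors' intervals, since the lower end was above 0 for 3 of the 40 values (LTP7 in leaves and siliques, LTP12 in flowers). Of 60 comparisons of a gene between organs, 34 were past 4-fold and 5 had intervals that did not overlap. These were LTP12 in flowers against each other organ and LTP7 in roots against leaves and against siliques. With that condition added, 1 of 10 genes was called in each pair but leaves against siliques, where 0 were. The background in either direction was then 1.35% of compared loci for roots against leaves, 0.375% for flowers against siliques, 1.62% for roots against flowers, 1.53% for roots against siliques, 0.69% for leaves against flowers and 0.562% for leaves against siliques. All compared loci had a lower end above 0 in 11.7% to 14.6% of the values in each library.

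Likeness of sequence and likeness of profile were set side by side for the 45 pairs. Identity of the predicted proteins ran from 29.3% to 81.7% with a median of 39.4%, and the distance between profiles in log2(FPKM + 1) over the 4 organs had a median of 9.57. The most similar proteins, LTP3 and LTP4 at 81.7%, also had close profiles, 3.68 apart. LTP1 and LTP2, at 68.6%, were 8.58 apart. The closest profiles of all belonged to LTP11 and LTP12 (1.51), whose proteins were 35.0% identical and which lie on different chromosomes. LTP2 and LTP5 followed at 3.51, with 55.9% identity, and LTP1 and LTP6 were 4.18 apart at 39.0%. The distance depends on level as well as on the order of organs. LTP2 and LTP5 had unlike orders, since leaves were highest for LTP5 (339 FPKM) and lowest for LTP2 (34.1 FPKM). Across pairs, Pearson's r between identity and distance was -0.43, given as a description, since pairs share genes and all profiles share the same 4 libraries.

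**Figure D4:**
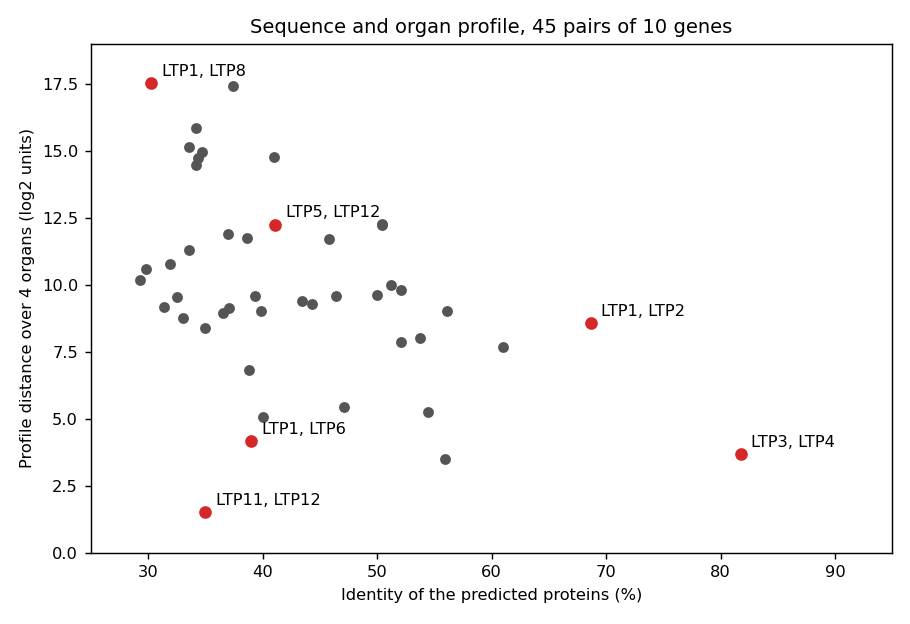
Each point is 1 of the 45 pairs among the 10 genes, with the identity of the predicted proteins on the horizontal axis and the distance between their profiles in log2 units over 4 organs on the vertical axis. LTP3 and LTP4 lie at 81.7% and 3.68, while LTP11 and LTP12 have the closest profiles (1.51) at 35.0% identity.

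The further 5 genes of the PR-14 class had at most 247 FPKM, the level of LTP10 in roots. LTP10 (AT5G01870) had 20.9 FPKM in leaves, 247 in roots, 17.4 in flowers and 77.6 in siliques. LTP9 (AT2G15325) stood at 33.2 FPKM in siliques and was listed at 0 in the other organs, and LTP15 (AT4G08530) reached 1.90 in siliques. LTP13 (AT5G44265) and LTP14 (AT5G62065) were at 17.3 and 7.24 FPKM in flowers, with at most 0.0214 elsewhere. In flowers against siliques, 2 of the 5 were called higher in flowers and 2 in siliques, against 4.94% and 3.63% of all compared loci. In roots against leaves, LTP10 was called higher in roots, 1 of 5 against 9.09%, and 0 were called higher in leaves.

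Other branches of the lipid transfer superfamily also had organ-restricted genes. Of 22 genes for proteins of the branch anchored to the membrane by a GPI lipid, 20 were compared. In roots against leaves, 6 were called higher in roots and 3 in leaves (backgrounds 9.09% and 7.42%), with a median of 0.01 against 0.34 for all compared loci. In flowers against siliques, 6 were called higher in flowers and 1 in siliques (backgrounds 4.94% and 3.63%), with a median of 0.67 against 0.19. AT5G09370 was highest of this list, at 618 FPKM in siliques and 13.0 in flowers, followed by AT1G55260 at 382 in siliques and LTPG1 (AT1G27950), a protein of cuticular wax export, at 219. AT4G08670 and AT4G14815 were flower genes, at 104 and 82.1 FPKM against at most 0.213 elsewhere. AT3G22600 and AT3G58550 were root genes, at 162 and 129 FPKM against at most 5.11 elsewhere.

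Of 15 genes of type 2 and of the kind of DIR1, a protein of systemic resistance, 14 were compared. In flowers against siliques, 1 was called higher in flowers, near the background of 4.94%, and 7 in siliques, against 3.63%, with a median of -2.21. The 7 carry neighbouring locus codes (AT5G38160 to AT5G38195 and AT1G43665 to AT1G43667), so they are not counted as independent of each other. In roots against leaves 3 were called higher in roots and 2 in leaves, against 9.09% and 7.42% (median 0.00). AT5G38160 and AT5G38170 had 392 and 357 FPKM in siliques and at most 0.118 in any other organ. AT1G66850 had 498 in flowers and 0.242 in siliques, and AT5G48490 went from 0.246 in roots to 233 in leaves.

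Of 15 genes for the synthesis and export of waxes and cutin, the lipids of the cuticle, 0 were called higher in roots than in leaves and 7 were called lower, against backgrounds of 9.09% and 7.42%, with a median log2 ratio of -1.85. GPAT6 had 12.4 FPKM in roots and 4.85 in leaves, short of the threshold. The wax genes CER6 (AT1G68530) and CER1 (AT1G02205) reached 430 and 519 FPKM in siliques and 191 and 27.4 in leaves, with 4.36 and 0.580 in roots. The exporters ABCG12 (AT1G51500) and ABCG32 (AT2G26910) had log2 ratios of roots over leaves of -3.71 and -3.41, and CER3 (AT5G57800) reached 400 FPKM in siliques. In flowers against siliques 1 of the 15 was called, higher in flowers against a background of 4.94% (GPAT6, an acyltransferase of cutin synthesis, at 112 and 13.9 FPKM) and the median was -0.35. The summed level of the list was lowest in roots (111 FPKM in roots, 617 in leaves, 1868 in flowers, 2430 in siliques). Roots were also the lowest organ for LTP1, LTP4, LTP5, LTP6, LTP7 and LTP12. The lowest organ was leaves for LTP2, LTP3 and LTP11 and flowers for LTP8.

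Of 10 genes of the drought and abscisic acid response, 9 were compared. In roots against leaves, 1 was called higher in roots, near the background of 9.09%, and 3 in leaves, against 7.42% (median -0.57). In flowers against siliques 1 was called in each direction, against 4.94% and 3.63% (median 0.71). RD20 (AT2G33380) had 457 FPKM in flowers and 278 in siliques, against at most 6.71 in the young organs, COR15A (AT2G42540) had 188 and 79.9 in the same organs, with 0.0893 in roots and 28.5 in leaves. KIN1 (AT5G15960) had 176 in flowers and 10.3 in siliques, below its 23.8 in roots, and 2.55 in leaves. MYB96 (AT5G62470), a regulator of cuticular wax and of LTP3 in the abscisic acid response, stood at 2.17 FPKM in roots, 25.7 in leaves, 17.4 in siliques and 31.7 in flowers. MYB96 had its highest value in flowers and its lowest in roots. LTP3 had its highest in siliques and its lowest in leaves, with intervals that all reach down to 0. The part of MYB96 in the LTP3 values was not tested.

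Among 22470 other compared loci with 1 gene code, the profile closest to LTP4 was that of the thionin THI2.1 (AT1G72260), 2.13 log2 units away over the 4 organs, with 775 FPKM in flowers and 1333 in siliques and at most 0.0213 in the others. The beta-amylase BAM5 (AT4G15210) followed at 2.99, with 168 and 898 FPKM. Closest to LTP6 were the vegetative storage protein VSP2 (AT5G24770), at 4.14, and the myrosinase TGG2 (AT5G25980), at 4.38. VSP2 had 2815 FPKM in siliques and 824 in flowers. Closest to LTP1 were NPQ4 (AT1G44575), a photosystem protein of energy dissipation, at 2.30, and the myrosinase TGG1 (AT5G26000), at 2.49. NPQ4 had 4.71 FPKM in roots and between 827 and 1126 in the aerial organs. These distances rest on 4 libraries.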

How the data were processed

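RNA was measured in 4 libraries, 1 per organ. DNase-treated RNA went into TruSeq RNA v2 libraries read on a HiSeq instrument, per the labels' protocols. TopHat and Cufflinks were run on TAIR10, per the submitters' processing notes, without a version in the sources used here. The deposited table holds an FPKM, the ends of an interval and a status word for each locus and library, per the file headers. Read totals, the confidence level of the intervals and any scaling between libraries were not found in the labels. What 1 fragment is worth was estimated from intervals that reach up to 3 times the value, taken as 1 fragment over the whole span of the locus. That assumption was not checked. LTP11 in siliques (0.464 FPKM, upper end 1.40) comes close to that shape at an estimated 42.8 fragments. The step is therefore a rough guide.

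Genes were found by locus code. Ratios used log2(FPKM + 1) as deposited, loci that reached an FPKM of 1 in no organ were left out, and a log2 ratio of 2 in size was called. With 1 library per organ no test was run. The call rule was tested on simulated data with built-in changes well past the threshold. That checks the code and says nothing about how sound the calls are. Table starts count from 0, since 10327 of 32103 loci lay 1 base before the TAIR10.1 reference start and 173 on it, and 10249 ends were equal. Positions are given from 1. Proteins were translated from the reference and aligned globally with Biopython 1.88. Python 3.11.15 and pandas 2.3.3 were used. The named genes are the 10 genes, the 2 nearest profiles to each of the 3 highest, and the leading genes of each list. The genes and lists were chosen with earlier results of these data known. Correlations over 4 organs were not used.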

Additional observations from a re-analysis of the deposited data

How the results depend on the processing

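No paired analysis was possible because each organ has 1 library. With separate intervals required, the counts of called genes went from 5 to 1 in roots against leaves, 4 to 1 in flowers against siliques, 8 to 1 in roots against flowers, 6 to 1 in roots against siliques, 7 to 1 in leaves against flowers and 4 to 0 in leaves against siliques, because few intervals have a lower end above 0. For this count of 0, 4 genes pass without the intervals, and with 1 library per organ no p can be had. At a log2 ratio of at least 1, flowers against siliques gave 8 calls in place of 4. Of these, 4 were higher in flowers, against 13.5% of all compared loci, and 4 in siliques, against 8.42%. Without the highest gene of each organ the family share was 1.46% in siliques, 0.595% in flowers, 0.0846% in leaves and 0.0221% in roots, which keeps the order of organs. The ratio of LTP5 in leaves over siliques was 1.98 with a pseudocount of 5 FPKM. Of the other values set beside the main ones, 39 ratios of single genes stayed on the same side of the threshold and 39 counts and shares within 1.5 times. These counts include, for each pair of organs, the count without the filter on low values. That count could not change, since every gene of the family passed the filter, so it says nothing about stability. The next counts, by direction, are set beside the share of all compared loci under the same setting. Among pseudocounts and scalings, a pseudocount of 0.1 FPKM moved the count higher in roots than in leaves from 1 to 3, against 13.8%. It moved that higher in leaves than in flowers from 1 to 2, against 4.21%. With median-of-ratios and upper-quartile scaling the last count was also 2, against 3.67% and 3.3%. A pseudocount of 5 FPKM left 0 higher in leaves than in siliques in place of 1, against 1.12%. As deposited, the median of all compared loci differed between organs by up to 0.38 (leaves against flowers, -0.38), and by -0.05 there after median-of-ratios scaling. That scaling called the same genes in the other 5 pairs. Depth and replicate error are unknown, so small ratios such as those of LTP2 cannot be placed against either.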
